A study of Homo sapiens with 6 samples.

Results

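A set of 10 circadian clock genes was followed in human lung cancer cells given the diterpenoid AL-X. The set holds CLOCK, PER1, PER2, PER3, CRY1, CRY2, NR1D1, NR1D2, DBP and BHLHE40. Its members were chosen by name, with earlier results of these data known. All 10 were found among the 60671 gene rows of the count table. Libraries made with an mRNA kit were sequenced from A549, HCC827 and H1975, which are 3 established lines of non-small cell lung cancer, after 48 h. Each line gave 1 library from cells in the solvent DMSO and 1 from cells in AL-X (the hydroxylated kaurenoic acid 9α,11αOH-KA) at 10 µg/mL, so there were 3 libraries per treatment. The labels give the genotype of all 6 as WT. Nothing in the sources used here ties a library to several cultures, so p-values measure the spread between lines. The sources used here give neither the hour of harvest nor any synchronisation of the cells, so at a single time point a shift in clock phase and a shift in level cannot be told apart.

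The circadian clock is a feedback loop of transcription. CLOCK pairs with BMAL1 and activates genes through a DNA element called the E-box, among them the PER and CRY genes, whose proteins return to repress the pair. A further loop runs through the nuclear receptors NR1D1 and NR1D2 (REV-ERBα and REV-ERBβ), which repress BMAL1, and DBP carries clock timing to genes that hold a D-box element. BHLHE40 (DEC1) is a repressor that competes at E-boxes and is also known to respond to hypoxia and other stress. In lung epithelium the clock is known to time secretory and inflammatory gene expression.

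Library totals lay between 98139178 and 126840915 counts. Levels are CPM, the count of a gene relative to the library size, scaled with the TMM method, which corrects for the composition of a library. With library totals as the only scaling all log2 folds shift, by -1.0 for A549, by 0.13 for HCC827 and by -0.41 for H1975, and the directions given here are relative to that shift. Genes of the mitochondrial genome took between 6.41% and 6.87% of counts with DMSO and between 0.0201% and 0.656% with AL-X. Leaving them out before scaling shifted no across-line or within-line log2 fold of a member by more than 0.01. Of 10 epithelial and lung markers between 8 and 9 had counts in each library, with summed levels of 3830 to 5250 CPM with DMSO and 2720 to 7260 CPM with AL-X. These sums came mostly from the keratins KRT7, KRT8, KRT18 and KRT19. In A549 EPCAM (2.63 CPM with DMSO and 1.46 with AL-X) and KRT19 (4.93 and 4.6) were low. The lung lineage factor NKX2-1 was nearly absent from A549 (0.081 CPM with DMSO and 0 counts with AL-X). Of 8 markers of leukocytes, fibroblasts and endothelium between 3 and 6 had counts, PTPRC and CD3E had 0 in all 6 libraries, and the summed level of 17.9 to 378 CPM came mostly from the lysosomal gene CD68.

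No clock gene of the 10 passed the test for a response shared by the lines. The question of this comparison is which genes AL-X moved in the same way in A549, HCC827 and H1975. All 10 passed the filter on low counts, and 0 of 10 had an adjusted p under 0.05 in edgeR's quasi-likelihood test, with values from 0.237 for DBP to 0.81 for NR1D2. Over all 20344 genes tested the share was 0.256%, with 0.0983% higher and 0.157% lower. At an unadjusted p under 0.05 edgeR had 2 members, NR1D1 higher and DBP lower, beside 15.7% of all genes. DESeq2 called 1 member, DBP, lower, where it called 7.51% of all genes with an adjusted p lower, and limma-voom called 0, beside 3.25% of all genes. The median across-line log2 fold was 0.38 for the members and -0.27 for all genes tested. In bulk RNA, fewer cells that carry a transcript and less of it per cell cannot be told apart.

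**Figure D1:**
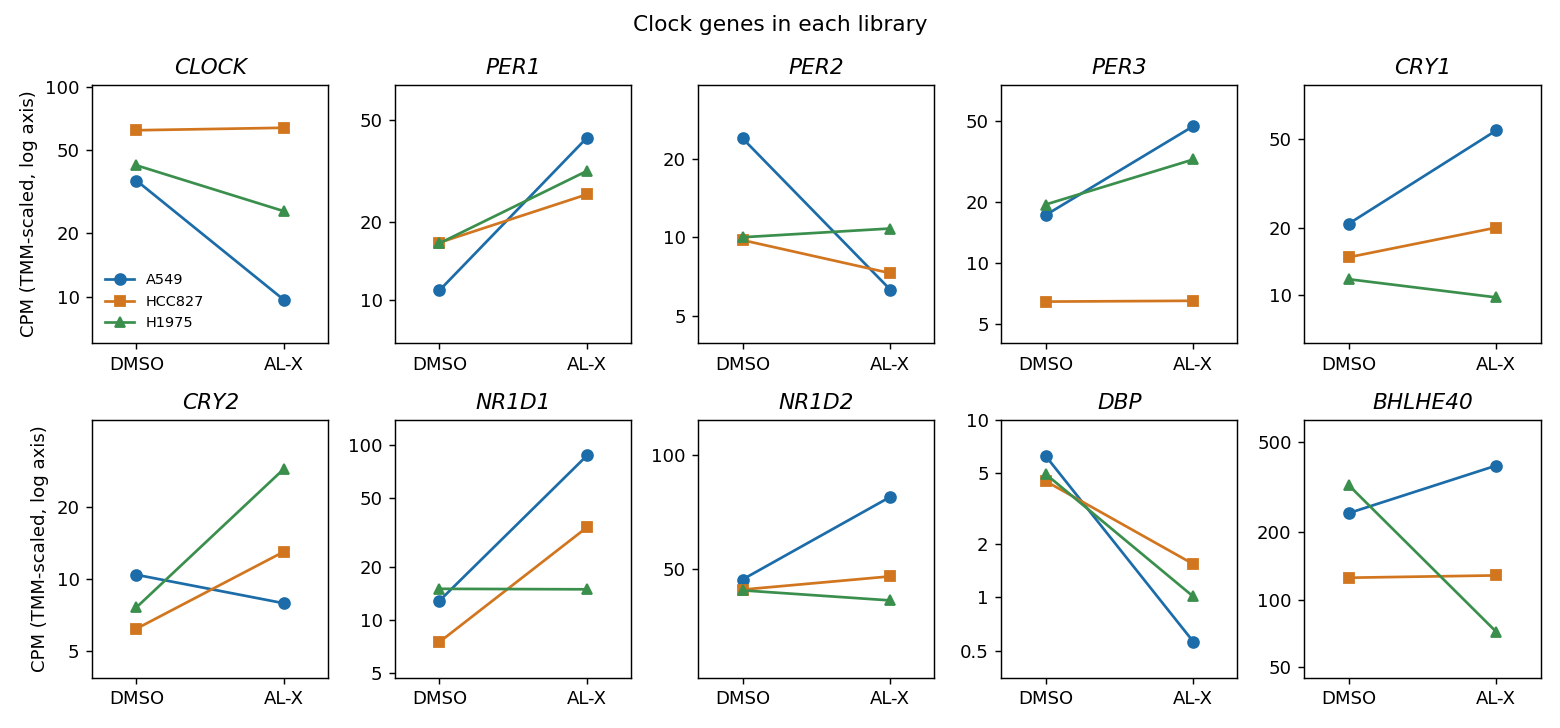
Level of each clock gene in CPM (TMM-scaled, logarithmic vertical axis, a different range per panel) in DMSO and AL-X libraries, with a line joining the 2 libraries of a cell line. DBP was lower with AL-X in 3 of 3 lines and PER1 higher in 3 of 3, while CRY2 was higher in HCC827 and H1975 and lower in A549, a difference between lines that did not pass its test.

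DBP, a transcription factor of the PAR bZIP family that binds D-boxes, had the largest absolute across-line fold among the members. The gene (ENSG00000105516) lies on the minus strand of GRCh38 chromosome 19, 48630030 to 48637438. Its level went from 6.29 CPM with DMSO to 0.562 with AL-X in A549, from 4.53 to 1.54 in HCC827 and from 4.97 to 1.01 in H1975. All AL-X libraries lay below all DMSO libraries. The counts behind these levels were 777 and 38 in A549, 670 and 193 in HCC827, and 624 and 102 in H1975. The group mean was 5.27 ± 0.917 CPM (SD, n = 3 lines) with DMSO and 1.04 ± 0.492 with AL-X. Within the lines DBP was 10.9-fold lower in A549, 2.91-fold in HCC827 and 4.87-fold in H1975. The 95% intervals of the log2 fold were -4.0 to -3.02, -1.79 to -1.32 and -2.62 to -2.0, which reflect counting error alone. PCR copies may be among the reads and would make such intervals too narrow. Across lines the log2 fold was -2.44 (SE 0.89, edgeR adjusted p = 0.237), with DESeq2 it was -2.43 (adjusted p = 0.00747) and with limma-voom -2.36 (adjusted p = 0.107). Over all alternatives the adjusted p ranged from 0.00747 to 0.684. Of the exons of DBP 661 bases (10.1%) are shared with SPHK2 on the other strand. No source used here gives the strand setting of the counting, so reads of that stretch cannot be told apart. SPHK2 had 2696 and 1927 counts in A549, 950 and 1606 in HCC827 and 1801 and 2579 in H1975.

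The promoters of the 3 members with the largest absolute across-line folds, DBP, NR1D1 and PER1, are shown because the clock is known to act on such genes through short promoter elements. Each is the 250 bases before the start site of the RefSeq gene on build GRCh38.p14, read 5′ to 3′ on the strand of the gene, with capitals for a match to a motif searched. That of DBP (chr19:48637380-48637629, minus strand) holds no match.
DBP: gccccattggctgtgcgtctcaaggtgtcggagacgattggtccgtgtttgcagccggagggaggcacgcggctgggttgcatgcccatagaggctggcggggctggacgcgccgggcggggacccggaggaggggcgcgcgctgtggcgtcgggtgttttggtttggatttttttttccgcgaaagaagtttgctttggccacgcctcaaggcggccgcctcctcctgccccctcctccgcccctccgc

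NR1D1, the repressor REV-ERBα, was higher with AL-X in A549 and HCC827 and level in H1975. It (ENSG00000126368) lies on the minus strand of chromosome 17, 40092787 to 40100725. The level was 12.9 CPM with DMSO and 87.5 with AL-X in A549, 7.5 and 34.0 in HCC827, and 15.1 and 15.0 in H1975. The AL-X library of H1975 fell within the range of the DMSO libraries, so the groups overlapped. The difference was 6.77-fold in A549 (log2 2.76, interval 2.68 to 2.84) and 4.53-fold in HCC827 (log2 2.18, interval 2.09 to 2.28). In H1975 it was -0.01 log2 units (interval -0.11 to 0.08). Across lines the log2 fold was 1.68 (SE 0.65, edgeR unadjusted p = 0.0244, adjusted p = 0.257). NR1D1 shares 263 bases, 9.49% of its exons, with the thyroid hormone receptor gene THRA on the other strand. THRA counts went from 9394 to 915 in A549, from 2066 to 733 in HCC827 and from 3658 to 2048 in H1975, lower in each line. No motif searched matched the 250 bases before the start of NR1D1 (chr17:40100590-40100839, minus strand).
NR1D1: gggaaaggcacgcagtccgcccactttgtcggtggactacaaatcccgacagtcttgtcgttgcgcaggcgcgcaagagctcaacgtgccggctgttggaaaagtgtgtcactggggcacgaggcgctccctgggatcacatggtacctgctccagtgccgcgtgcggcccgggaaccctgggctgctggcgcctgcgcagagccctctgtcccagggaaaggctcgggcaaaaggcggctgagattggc

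Its paralog NR1D2 (REV-ERBβ, ENSG00000174738, plus strand of chromosome 3, 23945260 to 23980618) had the smallest absolute across-line fold of the 10. Levels were 46.9 and 77.5 CPM in A549, 44.1 and 47.8 in HCC827, and 43.9 and 41.3 in H1975, with DMSO given before AL-X. The DMSO libraries lay close together, at 45.0 ± 1.68 CPM (SD, n = 3 lines), and only the AL-X library of A549 stood away from the rest. The log2 fold was 0.72 in A549, -0.28 with library totals as the only scaling, 0.12 in HCC827 and -0.09 in H1975. Across lines it was 0.25 (SE 0.46, edgeR adjusted p = 0.81), and -0.18 with library totals. It was 0.06 when A549 was left out and 0.41 without H1975.

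PER1, a repressor of CLOCK and BMAL1 that is also known as an early-response gene, was higher with AL-X in every line. It (ENSG00000179094) lies on the minus strand of chromosome 17, 8140472 to 8156506. In A549 it went from 10.9 to 42.7 CPM, in HCC827 from 16.7 to 25.7 and in H1975 from 16.6 to 31.7. All AL-X libraries were above all DMSO libraries, with group means of 14.7 ± 3.35 CPM (SD, n = 3 lines) and 33.4 ± 8.63. The difference was 3.93-fold in A549, 1.54-fold in HCC827 and 1.9-fold in H1975. Across lines the log2 fold was 1.17 (SE 0.54, edgeR unadjusted p = 0.0529, adjusted p = 0.324). It did not pass with DESeq2 (adjusted p = 0.156) or limma-voom (adjusted p = 0.237), and its adjusted p ranged from 0.156 to 0.81 over the alternatives. PER1 and DBP were thus the 2 of 10 members whose treatment groups did not overlap, where 17.4% of all genes tested had groups that did not overlap, 7.87% with AL-X above and 9.52% with AL-X below. The promoter of PER1 (chr17:8152405-8152654, minus strand) holds an E-box 173 bases before the start site.
PER1: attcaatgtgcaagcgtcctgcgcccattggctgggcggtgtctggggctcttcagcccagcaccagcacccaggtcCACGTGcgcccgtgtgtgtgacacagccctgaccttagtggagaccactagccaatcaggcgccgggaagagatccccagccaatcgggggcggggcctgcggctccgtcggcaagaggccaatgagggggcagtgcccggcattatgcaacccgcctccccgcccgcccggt

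PER2, the paralog most tied to the negative feedback of the loop, did not follow PER1. The gene (ENSG00000132326, minus strand of chromosome 2, 238244038 to 238290102) was at 23.9 CPM with DMSO and 6.31 with AL-X in A549, at 9.75 and 7.29 in HCC827, and at 10.0 and 10.8 in H1975. The DMSO library of A549 was the single high value, and the other 5 libraries lay between 6.31 and 10.8. In A549 PER2 was lower by 3.78-fold, and in HCC827 by 1.34-fold. In H1975 the log2 fold was 0.11 (interval -0.01 to 0.22), and -0.3 with library totals as the only scaling. Across lines it was -0.74 (SE 0.67, edgeR adjusted p = 0.595), with -0.11 when A549 was left out and -1.18 without H1975.

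PER3 (ENSG00000049246, plus strand of chromosome 1, 7784320 to 7845177), a period paralog that is thought to be less needed for rhythm, was higher in A549 and H1975. Its level was 17.2 CPM with DMSO and 47.3 with AL-X in A549, and 19.4 and 32.4 in H1975. In HCC827 it was the lowest of the lines, at 6.43 and 6.49, and did not differ beyond counting error (log2 interval -0.12 to 0.15). The folds were 2.75 in A549 and 1.67 in H1975, and across lines the log2 fold was 0.73 (SE 0.55, edgeR adjusted p = 0.525), and 0.42 when A549 was left out. The groups overlapped through HCC827. Of its exons 10.7% are shared with UTS2 on the other strand, which had at most 1 count in any library.

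CLOCK, the activating bHLH-PAS subunit and a histone acetyltransferase, was lower with AL-X in A549 and H1975. The gene (ENSG00000134852) lies on the minus strand of chromosome 4, 55427903 to 55547138. Levels were 35.7 and 9.63 CPM in A549, 62.0 and 63.7 in HCC827, and 42.2 and 25.5 in H1975. HCC827 held the highest values in either treatment, and the groups overlapped. The fold was 3.7 (lower) in A549 and 1.65 (lower) in H1975, while in HCC827 the log2 fold was 0.04 (interval 0.0 to 0.08). The across-line log2 fold was -0.86 (SE 0.54, edgeR adjusted p = 0.448), with -0.3 when A549 was left out and -1.35 without HCC827.

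The cryptochromes, which bind PER proteins and hold the CLOCK and BMAL1 pair in check, differed in opposite directions in A549 and H1975. CRY1 (ENSG00000008405, minus strand of chromosome 12, 106991364 to 107093829) went from 20.9 to 54.8 CPM in A549, from 14.8 to 20.1 in HCC827 and from 11.8 to 9.78 in H1975. It was thus highest in A549 and lowest in H1975 in either treatment, with groups that overlapped. Its log2 fold was 1.39, 0.44 and -0.27, and across lines 0.51 (SE 0.56, edgeR adjusted p = 0.656), with 0.13 when A549 was left out and 0.91 without H1975. CRY2 (ENSG00000121671, plus strand of chromosome 11, 45847118 to 45883248) went from 10.4 to 7.91 CPM in A549, from 6.2 to 13.0 in HCC827 and from 7.61 to 28.8 in H1975. Here the order of the lines with AL-X was the reverse of that of CRY1. CRY2 was 3.78-fold higher in H1975 and 2.09-fold higher in HCC827, and its log2 fold in A549 was -0.39 (interval -0.54 to -0.24). Across lines it was 0.87 (SE 0.68, edgeR adjusted p = 0.534), with 1.54 when A549 was left out and 0.33 without H1975.

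BHLHE40 was the most abundant member and differed mainly in H1975. The gene (ENSG00000134107) lies on the plus strand of chromosome 3, 4979116 to 4985323. Levels were 242 CPM with DMSO and 394 with AL-X in A549, 125 and 128 in HCC827, and 323 and 71.9 in H1975. The H1975 libraries thus held a high DMSO value and the lowest value of all 6, from 40572 and 7283 counts. BHLHE40 was 4.49-fold lower in H1975 (log2 interval -2.2 to -2.13), and the log2 fold was 0.04 in HCC827. In A549 it was 0.71, and -0.3 with library totals as the only scaling. Across lines it was -0.44 (SE 0.67, edgeR adjusted p = 0.756), and 0.36 (edgeR adjusted p = 0.976, with 0.513 to 0.976 over the alternatives) when H1975 was left out, so the direction rests on that line. It was -1.02 without A549 and -0.78 without HCC827.

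**Figure D2:**
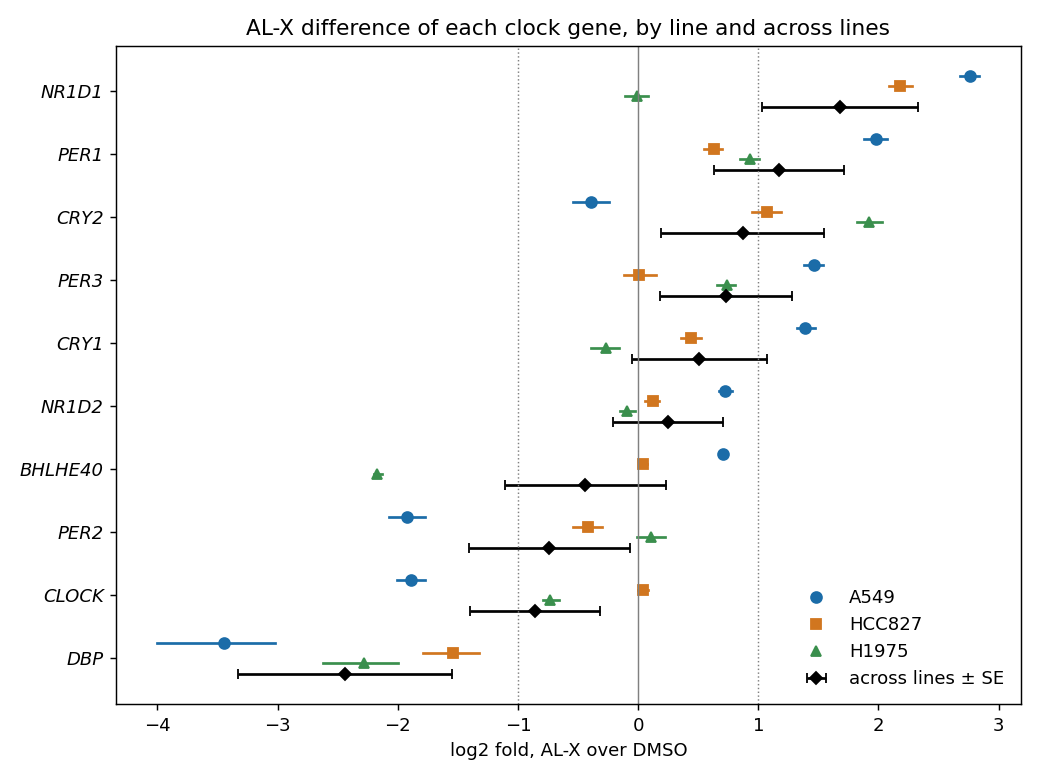
Log2 fold of AL-X over DMSO for each clock gene, as coloured points per line with exact binomial 95% intervals for counting error, and as black diamonds for the across-line edgeR estimate with its standard error. Dotted lines mark a 2-fold difference. The estimate of DBP was -2.44 and that of NR1D1 1.68, and the spread between lines was wider than the counting intervals.

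The within-line comparisons ask how far the clock genes of each line differed. There is 1 library per line and treatment, so no test was made, and a gene was counted where it reached 5 CPM in the higher of its libraries and differed by 2-fold or more. In A549 4 of the 10 members were higher, PER1, PER3, CRY1 and NR1D1, and 3 were lower, CLOCK, PER2 and DBP. Among all 11959 genes considered in A549 30.1% were higher and 31.6% lower. In HCC827 2 of 9 members considered were higher, CRY2 and NR1D1, beside 10.7% of all genes, and 0 were lower, beside 17.3%. In H1975 1 of 9, CRY2, was higher, beside 15.4%, and 1 of 9, BHLHE40, was lower, beside 17.8%. DBP was left out in HCC827 and H1975 because its DMSO levels of 4.53 and 4.97 CPM lay just under the minimum. With a minimum of 1 CPM it counted as lower, which gave 1 member in HCC827, beside 20.4% of all genes at that minimum, and 2 in H1975, beside 23.4%. With library totals as the only scaling 1 member instead of 4 was higher in A549, beside 12.7% of all genes, and 3 instead of 1 were lower in H1975, beside 28.2%. In A549 4 instead of 3 of the 10 members were then lower, beside 6151 of 11830 genes considered. In HCC827 1 instead of 0 was lower, beside 1870 genes, a share of all genes that was not taken.

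Signs were shared by few members. Across the lines 2 of 10 were higher in 3 of 3 (PER1 and PER3, the latter at 0.01 log2 units in HCC827) and 1 was lower in 3 of 3 (DBP), beside 16.9% of all genes higher in 3 of 3, 25.3% lower, and 42.2% with a shared sign in either direction. The other 7 had mixed signs. With library totals as the only scaling these 3 kept their signs and PER2 was below 0 in 3 of 3. Relative to the shift of -0.41 in H1975, PER2 was at 0.11 there. The share of all genes was not taken under that scaling. The members considered had a median log2 fold of 0.72 (A549), 0.12 (HCC827) and -0.01 (H1975), beside -0.01, -0.04 and 0.06 for all genes considered. Fold and exonic length were related across protein-coding genes (Spearman rho -0.343 in A549, -0.062 in HCC827 and -0.351 in H1975, across genes, which are not independent replicates). Over the 10 members, whose exonic lengths run from 2772 to 11762 bases, rho was -0.285, -0.406 and 0.224. The part of length in the members' values was not tested.

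**Figure D3:**
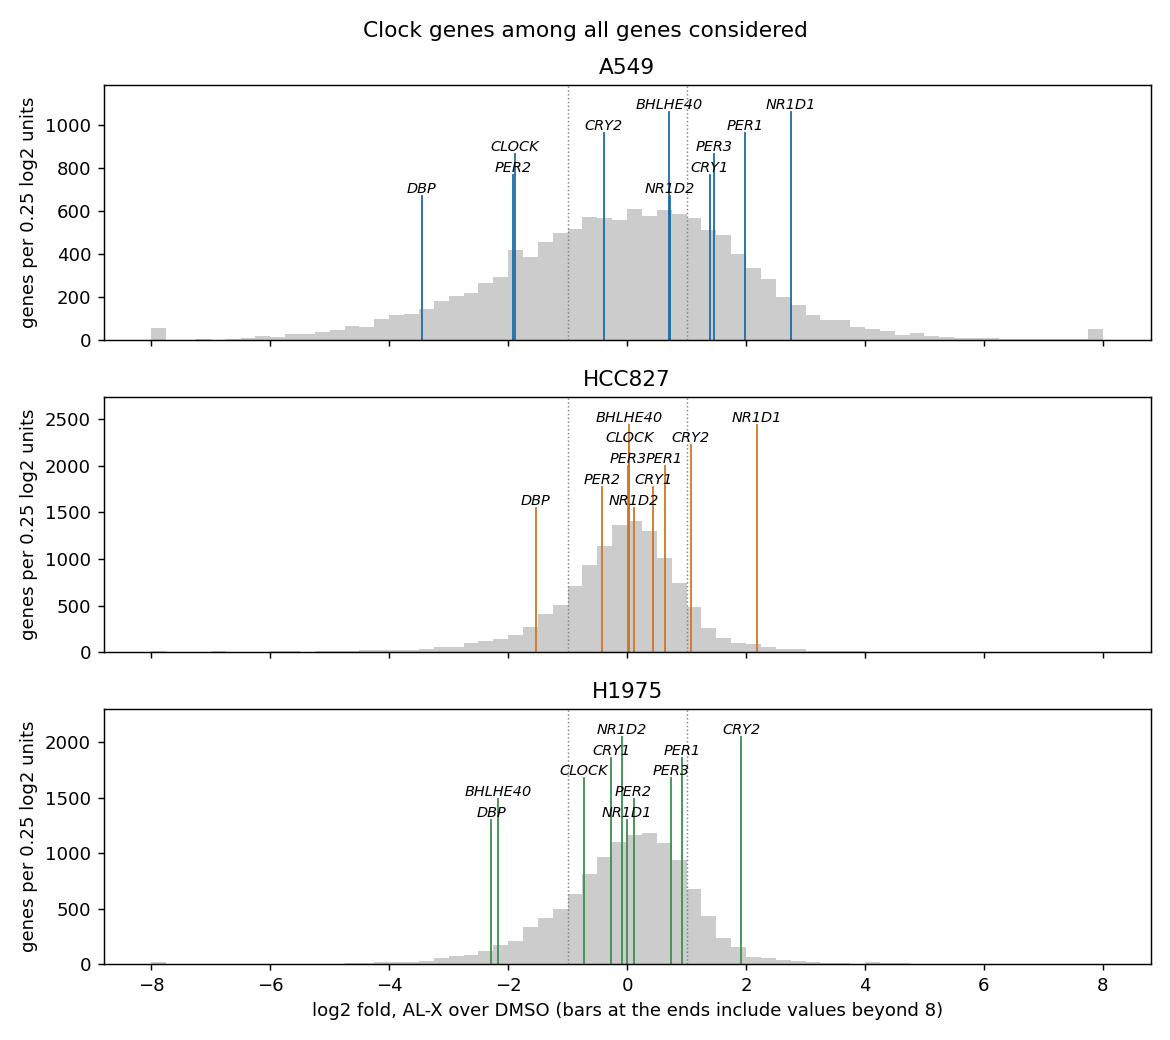
Number of genes per 0.25 log2 units of the AL-X over DMSO fold (grey bars, genes that reached 5 CPM in either library) in each line, with a coloured stem for every clock gene. Stem heights only separate the names. DBP in HCC827 and H1975 is drawn although it lay just under 5 CPM. The grey distribution is widest in A549, where 61.7% of genes differed by 2-fold or more, against 28.0% in HCC827 and 33.2% in H1975.

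The response of each line was set against the mean response of the remaining lines with edgeR, as an interaction that leaves 1 residual degree of freedom. No member passed in any of the 3 tests, and 0 had an unadjusted p under 0.05. Over all genes 0.28% passed for A549, 0.261% for HCC827 and 0.0% for H1975, and 11.0%, 8.19% and 1.16% had an unadjusted p under 0.05. The smallest unadjusted p among the members was 0.101, for CLOCK in A549 (difference -1.56 log2 units, SE 0.93, edgeR adjusted p = 0.563). For H1975 the differences were -2.53 for BHLHE40 (SE 1.81, edgeR unadjusted p = 0.161) and -2.48 for NR1D1 (SE 1.52, unadjusted p = 0.102). The line-specific values of CRY2, BHLHE40 and NR1D1 are therefore not shown to differ between lines by this test.

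Ratios of paralogs within a library do not depend on the scaling between libraries. Counts were divided by exonic length before the ratio was taken. The ratio of PER1 to PER2 went from 0.447 to 6.65 in A549, from 1.68 to 3.47 in HCC827 and from 1.63 to 2.89 in H1975, a log2 difference of 3.9, 1.05 and 0.82. PER1 was thus the more abundant of the pair in 3 of 3 lines with AL-X and in HCC827 and H1975 with DMSO. The ratio of PER3 to PER2 differed by 3.38 log2 units in A549, by 0.43 in HCC827 and by 0.63 in H1975. Both period ratios were higher with AL-X in every line, and A549 had the largest difference of the 3 lines. The ratios share PER2, whose counts went from 2947 to 427 in A549, so they are not independent. Ratios of gene pairs beyond these paralogs were not taken. Of all genes considered, 61.7% differed by 2-fold or more in A549, 28.0% in HCC827 and 33.2% in H1975. CRY1 outnumbered CRY2 in all DMSO libraries, by 2.47 in A549, 2.92 in HCC827 and 1.9 in H1975. With AL-X the ratio was 8.5, 1.89 and 0.416, a log2 difference of 1.78, -0.63 and -2.2. In H1975 CRY2 was therefore the more abundant cryptochrome with AL-X. NR1D1 to NR1D2 went from 0.578 to 2.37 in A549 and from 0.357 to 1.5 in HCC827, log2 differences of 2.04 and 2.07, and from 0.723 to 0.761 in H1975, a difference of 0.07. The exact binomial 95% intervals of the last pair, 0.686 to 0.762 and 0.717 to 0.808, overlapped.

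**Figure D4:**
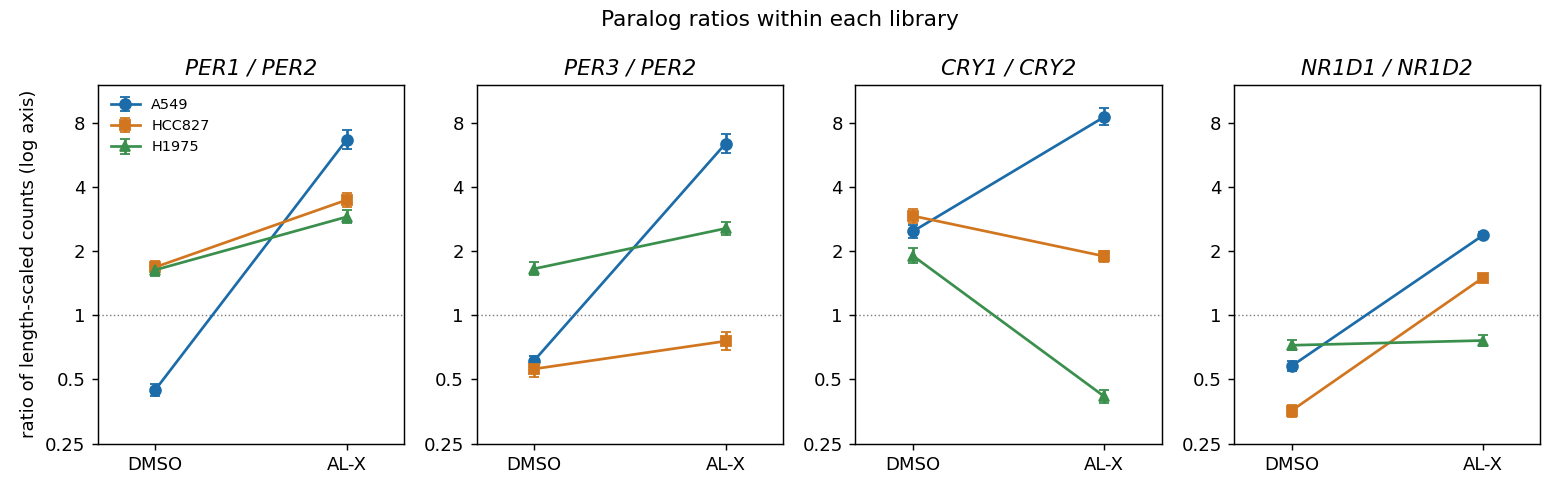
Ratio of length-scaled counts of clock paralogs in each library (logarithmic vertical axis, same range in all panels), with exact binomial 95% intervals for counting error and a line joining the 2 libraries of a cell line. PER1 to PER2 was higher with AL-X in 3 of 3 lines, and CRY1 to CRY2 separated from 8.5 in A549 to 0.416 in H1975.

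In the solvent BHLHE40, NR1D2 and DBP held the same rank among the members in each line. Levels per length were taken as TPM, transcripts relative to all transcripts over merged exons, given as the lowest, median and highest of the 3 DMSO libraries. BHLHE40 was first in 3 of 3 lines (139, 253 and 371 TPM). NR1D2 was second (32.3, 32.3 and 33.2 TPM), and neither range overlapped the next. NR1D1, CLOCK, CRY1, PER1, PER3, PER2 and CRY2 followed in the order of their medians, from 18.7 TPM for NR1D1 to 5.4 TPM for CRY2. Each of the 7 overlapped its neighbour in this order, so their ranks are not separated beyond the spread between lines. DBP was last in 3 of 3 (2.96, 3.34 and 3.86 TPM), over merged exons of 6544 bases. A shorter transcript would give DBP a higher level per length, so its rank depends on the length used. PER2 was at 13.9 TPM in A549 and PER3 at 3.39 TPM in HCC827.

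Elements of the clock were looked for in the 14 RefSeq promoter windows of the 10 members, 250 bases before to 50 after a start site, on either strand. An E-box (CACGTG) was present in a window of 3 members, PER1, NR1D2 and BHLHE40, and in 7.26% of all 35116 promoters. A D-box of the form TTANGTAA was present in 3, PER2, PER3 and NR1D2, and in 2.18% of all. Other forms of the D-box were not searched, and the letters ttatgcaa stand in the promoter of PER1 shown above. The extended element bound by NR1D1 and NR1D2 (the RORE, 0.168% of all promoters), the cyclic AMP response element (TGACGTCA, 1.85%) and the heat shock element (GAANNTTC, 6.77%) matched in 0 members. The shorter half-site TGACG, which lies within the cyclic AMP response element, matched in 5 members and in 24.6% of all promoters. Some members have 2 windows, while each share is per window. The E-box and D-box matches beyond PER1 are given with their surroundings, 30 bases each, because they include the elements on which the CLOCK pair, BHLHE40 and DBP are known to act. They begin 155 and 105 bases (NR1D2, E-boxes), 245 (BHLHE40), 3 (PER2), 177 (PER3) and 194 (NR1D2, D-box) before a start site, and capitals mark the element. NR1D2 holds its D-box on the other strand, so the letters shown are the reverse complement of the motif.
NR1D2 E-box, chr3:23945954-23945983, plus strand: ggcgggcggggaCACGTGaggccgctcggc
NR1D2 E-box, chr3:23946004-23946033, plus strand: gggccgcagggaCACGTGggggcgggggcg
BHLHE40 E-box, chr3:4979187-4979216, plus strand: tccaaCACGTGagactcatgtgatgaagcc
PER2 D-box, chr2:238288595-238288624, minus strand: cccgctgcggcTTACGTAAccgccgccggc
PER3 D-box, chr1:7784103-7784132, plus strand: gagcccgcgcgTTATGTAAcgcgccccggg
NR1D2 D-box, chr3:23945916-23945945, plus strand: gtgacgcggcaTTACATAAtgggcgctgag
The members with an E-box differed by 1.17, 0.25 and -0.44 log2 units across lines (PER1, NR1D2 and BHLHE40). Those with a D-box of the form searched differed by -0.74, 0.73 and 0.25 (PER2, PER3 and NR1D2). A match is a description of these letters and not a site.

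Among the members the patterns over the 6 libraries were most alike for NR1D2 and CRY1 (Pearson r = 0.958) and most opposed for DBP and PER1 (r = -0.977) and for PER3 and CLOCK (r = -0.915). These are descriptions over 6 libraries that share scaling factors and cell lines. Outside the clock, the 3 genes most like DBP among 11521 candidates were PDCL, CBX5 and E2F2 (r = 0.998, 0.994 and 0.993), and 109 candidates had r over 0.95. For NR1D1 they were JOSD1, ZSWIM8 and TSC1 (0.997, 0.995 and 0.99), with 39 over 0.95.

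Of 47 other genes of the clock, in 8 lists by role, 43 passed the filter on low counts and 0 had an adjusted p under 0.05 by edgeR. The unadjusted p of edgeR was under 0.05 for 5 that were higher and 5 that were lower, beside 5.48% and 10.2% of all genes. DESeq2 called 3 higher, NFIL3 and SIRT1 among them, and 3 lower, KMT2A and KLF9 among them, beside 3.24% and 7.51% of all genes. With limma-voom there were 3 higher and 1 lower, beside 1.59% and 1.66%. SIRT1, a deacetylase that acts on clock proteins, was named after its values were seen. Its across-line log2 fold was 2.21 (SE 0.62, edgeR adjusted p = 0.153).

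Some of these factors share target elements with the members. NFIL3, a repressor at the D-boxes that DBP activates, went from 21.8 to 144 CPM in A549, from 16.5 to 46.4 in HCC827 and from 27.2 to 144 in H1975. All AL-X libraries were above all DMSO libraries, and the across-line log2 fold was 2.21 (SE 0.49, adjusted p = 0.0993 with edgeR, 0.00145 with DESeq2 and 0.0205 with limma-voom, and up to 0.569 over the alternatives). TEF, a PAR bZIP factor like DBP, was at 9.01 and 1.89 CPM in A549 but at 7.22 and 7.34 in HCC827 and 13.3 and 13.8 in H1975, with an across-line log2 fold of -0.69 (SE 0.75, adjusted p = 0.653) and 0.08 without A549. The other PAR bZIP gene listed, HLF, did not pass the filter on low counts, as its counts lay mainly in A549 with DMSO. It was named after its values were seen, 894 and 4 counts in A549, 39 and 0 in HCC827 and 0 in both H1975 libraries.

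Among the activators 0 of 3 passed, and all 3 had an across-line fold below 0, as had the median of all genes tested (-0.27). Only BMAL2 was lower in each line. BMAL1, the partner of CLOCK, was named after its values were seen, at 22.6 and 6.71 CPM in A549, 13.4 and 23.5 in HCC827 and 21.8 and 31.7 in H1975, and its log2 fold was -0.09 (SE 0.66). BMAL2 was at -0.86 (SE 0.48) and NPAS2, which can stand in for CLOCK, at -0.5 (SE 0.5), with 155 and 66.6 CPM in A549. In the list of other repressors 0 of 4 passed, with BHLHE41 (DEC2), the paralog of BHLHE40, at -1.48 (SE 1.03) and TIMELESS, which is better known for replication fork protection, at -0.51 (SE 0.5). BHLHE41 was at 7.27 and 1.64 CPM in H1975, where BHLHE40 was lower too. In A549 its log2 fold was -2.34 (interval -3.66 to -1.5), where that of BHLHE40 was 0.71. Of the kinases and ubiquitin enzymes that set the stability of PER and CRY proteins 0 of 11 tested passed. The casein kinase CSNK1A1 was at 0.79 (SE 0.62) and the AMP-activated kinase subunit PRKAA2 at -1.58 (SE 0.72). PRKAA2 was at 31.0 and 11.1 CPM in A549 and 65.3 and 44.0 in HCC827, and nearly absent from H1975 in either treatment, with 14 and 0 counts. The list of corepressors and chromatin partners had 0 of 8, with the PER-complex protein SFPQ at 0.75 (SE 0.82), or -0.08 without A549, and the histone methyltransferase KMT2A at -2.39 (SE 0.83). Of the output genes 0 of 5 tested passed, with NAMPT, of NAD synthesis, at 0.71 (SE 0.67) and KLF9 at -2.88 (SE 0.95). The inputs had 0 of 8, with CREM, a cyclic AMP responsive factor, at 1.66 (SE 0.63) and the glucocorticoid receptor NR3C1 at -0.26 (SE 0.47). Several of these values depended on which lines were included. Without A549 they were -0.09 for NPAS2, -0.9 for BHLHE41, -0.27 for TIMELESS, 0.25 for CSNK1A1, -1.18 for KMT2A and 0.21 for NAMPT. Without HCC827 they were -0.98 for NPAS2, -2.34 for BHLHE41, -2.48 for PRKAA2 and 1.02 for CREM. Without H1975 they were -0.86 for TIMELESS, -1.04 for PRKAA2 and -1.87 for KLF9.

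**Figure D5:**
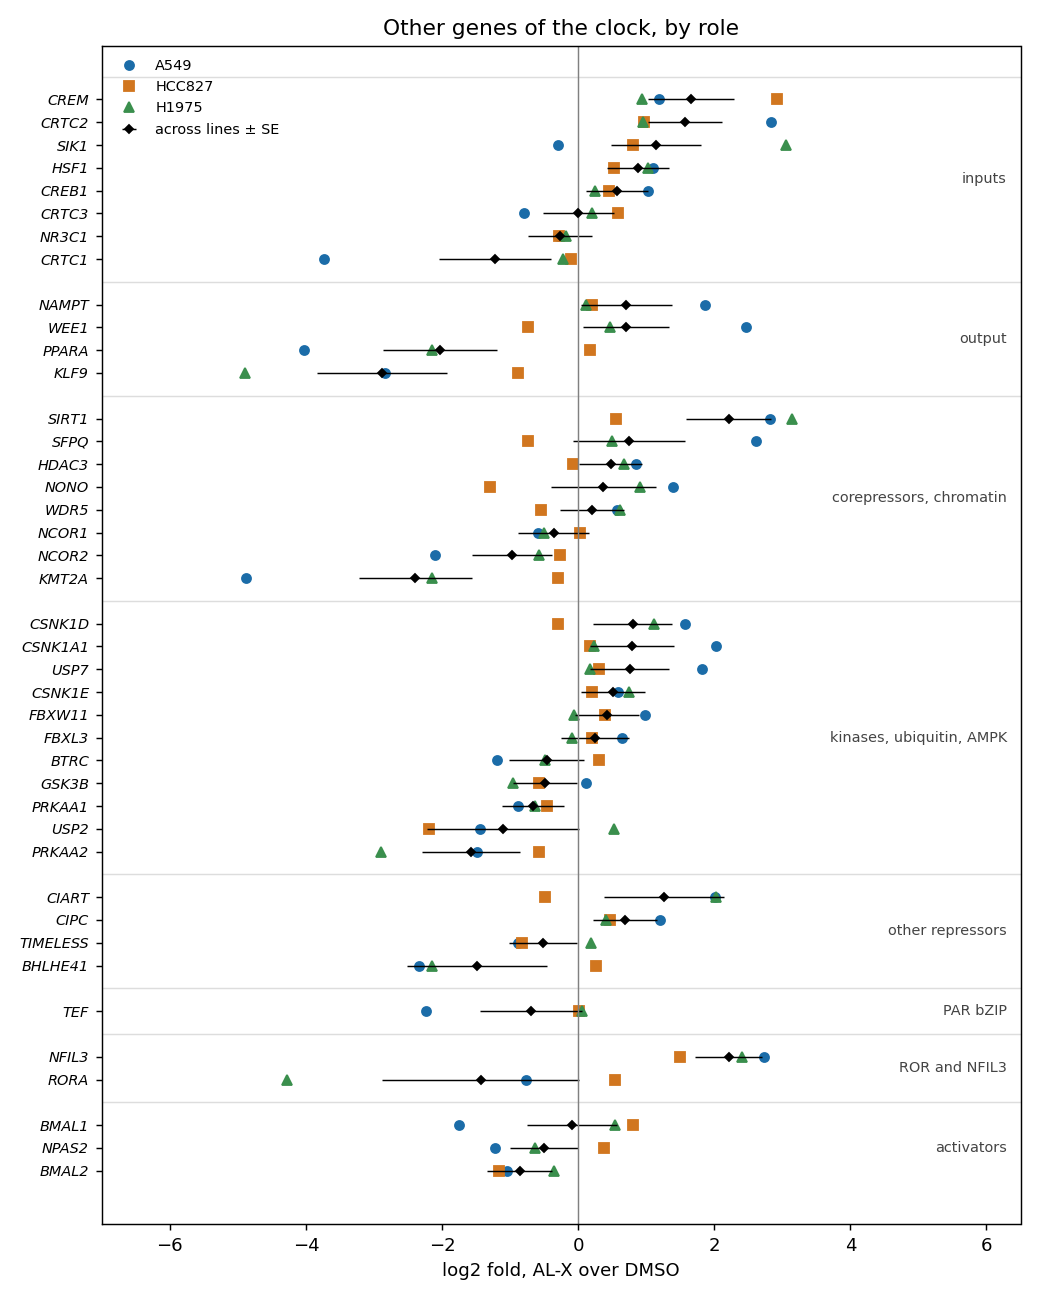
Log2 fold of AL-X over DMSO for tested clock genes outside the 10, grouped by role, as coloured points per line and black diamonds for the across-line edgeR estimate with its standard error. NFIL3 was higher in 3 of 3 lines.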

How the data were processed

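RNA-seq was compared in 6 libraries, 1 with DMSO and 1 with AL-X from each of 3 lines. The file the authors deposited holds raw counts, as whole numbers for each Ensembl gene identifier. Per the labels' protocols, RNA was extracted with Trizol and made into libraries with an mRNA kit. The submitters' processing notes name bcl2fastq 2.20 and GRCh38. How reads were aligned and counted, with which annotation, strand setting or molecular barcodes, is not given in the sources used here. Identifiers were paired with symbols from a gene name table, and positions and merged exonic lengths are those of GENCODE release 29.

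For the across-line effect edgeR 4.0.16 was used under R 4.3.3 (TMM, filterByExpr, robust quasi-likelihood test, Benjamini-Hochberg over all 20344 genes), with the line as a block and 2 residual degrees of freedom. The pairing comes from the cell line label. Libraries of 1 line deviated together from the group means (r = 0.656 in A549, 0.521 in HCC827 and 0.694 in H1975). The p-values measure only the spread between the lines. Log2 folds within a line used a prior count of 2. Promoters and motifs come from RefSeq (GRCh38.p14).

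The members, the gene lists and the tests were chosen with earlier results of these data known. Named genes outside the members were those of each list that passed, had the highest mean CPM or had the largest absolute across-line fold, and the 3 genes with the highest r to the 2 members with the largest folds. Alternatives were DESeq2 1.42.0, limma-voom (limma 3.58.1), other scalings and filters, no robust shrinkage, no block, other prior counts and CPM minimums, and each line left out. The fits were also run on simulated counts with known changes, in which the variability of each gene was capped. That run does not show how the tests perform with the spread between these lines. The values of some listed genes are not reported here, though the counts per list include them.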

Additional observations from a re-analysis of the deposited data

How the results depend on the processing

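The number of members called across lines was 0 under the alternatives tried except DESeq2, which called 1 (DBP), and for the 10 members 117 of 120 alternative values kept their direction and side of the threshold. The exceptions beside DBP were NR1D2 at -0.18 with library totals only and BHLHE40 at 0.36 without H1975. Leaving out a line in turn gave -1.02 to 0.36 for BHLHE40, -1.14 to 0.08 for TEF and -0.08 to 1.51 for SFPQ, the last 2 reversed without A549. For other members it gave -1.35 to -0.3 for CLOCK, -1.18 to -0.11 for PER2, 0.13 to 0.91 for CRY1 and 0.33 to 1.54 for CRY2, in the same direction. With the replicate block by line removed, 0 genes were called higher and 0 lower, and 0 members. Over all genes 20 were higher and 32 lower. These counts were 0 and 0 with library totals and with no filter, 8 and 4 without mitochondrial genes, 608 and 1409 with DESeq2, and 323 and 338 with limma-voom. Without 1 line they were 28 to 127 higher and 57 to 78 lower. The line-difference test called 57 genes for A549, 24 with DESeq2 size factors and 0 with library totals, and 53 for HCC827, 0 with library totals. Members called there stayed at 0. With library totals, 1504 genes were 2-fold higher and 6151 lower in A549, of 11830 considered. There were 1701 and 1870 in HCC827, where the number considered was not taken, and 830 and 3389 of 12026 in H1975. Members were then 1 higher and 4 lower in A549, 2 and 1 in HCC827, and 1 and 3 in H1975. With a minimum of 1 CPM 1952 genes were higher and 3093 lower in HCC827, with 1 member lower, and 3491 genes were lower in H1975, with 2 members lower. Without mitochondrial genes 2 members were lower in H1975, beside 2114 genes, a share of all genes that was not taken. These members were BHLHE40, and DBP at a log2 fold of -2.28 in that setting and in the main one. The level of DBP in H1975 with DMSO was 4.97 CPM in the main setting, just under the minimum. None of the 120 alternative values of the members' within-line folds turned a called direction, and 28 moved beyond counting error. The causes were not tested. With 1 library per line and treatment, counting depth limits DBP most, at 38 counts in A549 with AL-X.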
